A study of Mus musculus with 23 samples.

Results

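Of the 18512 gene symbols counted in each library, 10 were selected by name as ligands, receptors, secreted antagonists and a feedback target of Wnt signaling: *Sfrp1*, *Sfrp2*, *Sfrp5*, *Dkk3*, *Wnt5a*, *Fzd1*, *Fzd2*, *Fzd4*, *Lrp6* and *Axin2*. Each was present in all files, so that 10 of 10 could be followed. The libraries came from the head of the pancreas of 23 C57BL/6 mice that had been 6 to 8 weeks old at the start. Baseline mice (n = 8, 4 females and 4 males) were not injured. The other mice had been given caerulein, a cholecystokinin analogue that overstimulates acinar cells and causes acute pancreatitis, as 8 hourly intraperitoneal injections of 50 µg/kg on each of 2 days. Their tissue was taken on day 7 (n = 8, 4 females and 4 males) or day 14 post-injury (n = 7, 3 females and 4 males). Each library was made from bulk tissue of 1 mouse, so fewer cells of a type and less RNA per cell cannot be told apart.

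Wnt proteins are secreted glycoproteins that bind Frizzled receptors on the cell surface. With the co-receptor LRP5 or LRP6 they stabilize beta-catenin, which then acts with TCF/LEF factors on target genes, and *Axin2* is a widely used readout of that branch. WNT5A is better known for signaling that does not use beta-catenin. Secreted Frizzled-related proteins bind Wnt proteins outside the cell and can limit or redistribute their activity. In many organs, the pancreas included, fibroblasts and other stromal cells are a major source of these secreted modulators.

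Total counts ranged from 7059890 to 9567446 per library. Levels are given as CPM, the count of a gene relative to the library size, after TMM scaling, and a total of 3 counts, taken as the detection floor, equals 0.224 to 0.522 CPM. Acinar markers summed to between 160210 and 408480 CPM in every library, so each library held the defining transcripts of the labelled tissue. The 20 most abundant genes held between 66.4% and 71.2% of the baseline counts, between 55.3% and 62.8% on day 7 and between 63.9% and 66.2% on day 14. If libraries were scaled by their total count alone, the median log2 fold change of all genes tested was 0.47 at day 7 and 0.22 at day 14 in place of 0.022 and 0.0062, and all changes below refer to the TMM scale.

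The upstream sequences of 2 members are shown because one of them, *Sfrp2*, rose after injury, while the other, *Axin2*, is the feedback target that reads out beta-catenin. Each is the stretch of 250 bases directly before the annotated start, 5′ to 3′ on the strand of the gene, from RefSeq on build GRCm38.p6, at chr3:83766071-83766320 (plus strand) for *Sfrp2* and chr11:108920099-108920348 (plus strand) for *Axin2*. Capitals mark GC boxes, searched as GGGCGG and its complement CCGCCC.
Sfrp2: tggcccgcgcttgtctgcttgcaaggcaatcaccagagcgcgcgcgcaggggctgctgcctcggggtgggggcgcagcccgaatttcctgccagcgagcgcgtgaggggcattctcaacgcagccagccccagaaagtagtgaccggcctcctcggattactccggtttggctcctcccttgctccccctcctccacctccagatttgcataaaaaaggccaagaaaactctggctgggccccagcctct
Axin2: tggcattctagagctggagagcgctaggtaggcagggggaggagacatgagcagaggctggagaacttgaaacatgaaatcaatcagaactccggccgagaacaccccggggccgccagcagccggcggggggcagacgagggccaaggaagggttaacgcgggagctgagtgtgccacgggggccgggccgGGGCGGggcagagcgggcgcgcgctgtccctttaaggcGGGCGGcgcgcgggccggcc
The *Axin2* stretch held 2 GC boxes, the nearer starting 20 bases before the start, and the *Sfrp2* stretch held none. A GC box was found in 32.7% of 32851 promoter stretches of this length. The TCF/LEF letters CTTTGAT and CTTTGAA, searched on both strands, were not in either stretch and were in 7.48% of all stretches. RefSeq promoters could be matched for 5 of the 10 members.

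The antagonist *Sfrp1* rose the most of the members after injury, and it was the only one that passed the test at both time points. *Sfrp2* and the ligand *Wnt5a* passed with a higher level at day 7. The antagonist *Dkk3*, the tested receptors and the feedback target *Axin2* did not pass the test at either time point. That alone does not show that they changed less than the members that passed. The day 7 interval of *Fzd1* (1.09- to 1.90-fold), for instance, overlapped that of *Wnt5a* (1.30- to 1.99-fold). DEGs were genes that differed by 1.5-fold or more and whose adjusted p did not exceed 0.05 in the quasi-likelihood test of edgeR, with Benjamini-Hochberg adjustment over all 12195 genes tested. *Sfrp5* and *Fzd2* had too few counts for the filter (about 1.16 CPM in at least 7 mice). Of the 8 members tested, 3 were DEGs at day 7, all of them higher, where 5.13% of all genes tested were DEGs and 3.82% were DEGs with a higher level. Each of the 3 entered the test with the help of the injured groups, because fewer than the required 7 baseline mice reached the filter level. The numbers were 5 for *Sfrp1*, 6 for *Wnt5a* and 0 for *Sfrp2*. *Dkk3* likewise had 3, whereas *Fzd1*, *Fzd4*, *Lrp6* and *Axin2* had 8 each. The 3 DEGs were thus tested partly because they were higher after injury, and the counts of members called are a description only. At day 14, 1 of the 8 was a DEG, against 0.787% of all genes tested (0.697% called higher). The median log2 fold change of the 8 was 0.60 at day 7 and 0.16 at day 14.

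**Figure D1:**
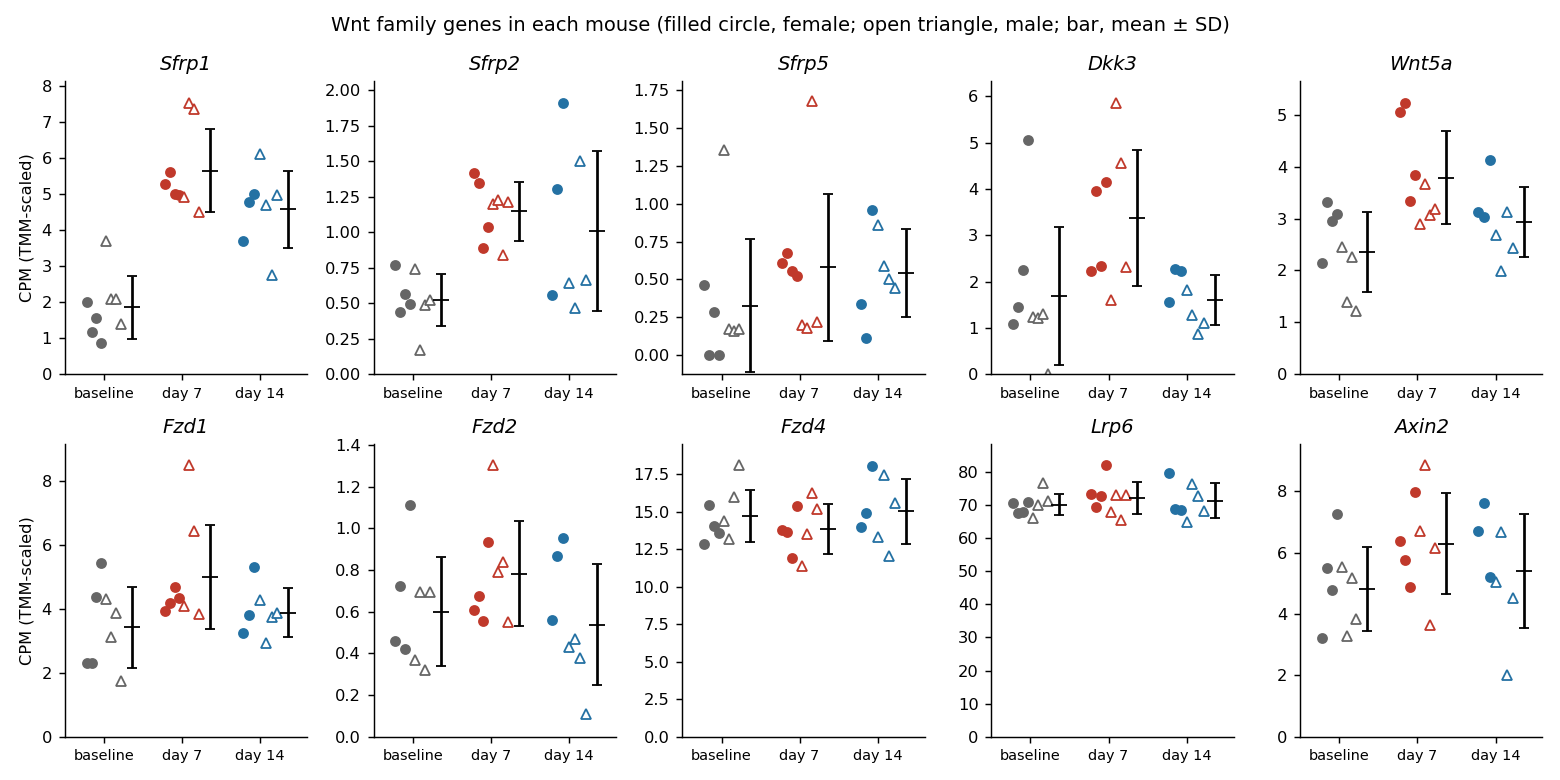
Level of each member in each mouse, in CPM after TMM scaling, at baseline, day 7 and day 14; filled circles are females, open triangles are males, and bars are mean ± SD. For *Sfrp1* and *Sfrp2* all 8 day 7 mice lie above all baseline mice, whereas for *Fzd4*, *Lrp6* and *Axin2* the 3 groups overlap.

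*Sfrp1*, which encodes secreted Frizzled-related protein 1, lies at chr8:23411502-23449632 on the plus strand (GRCm38). Its level was 0.863 CPM in the lowest, 1.77 in the median and 3.69 in the highest baseline mouse. At day 7 these values were 4.51, 5.13 and 7.53 CPM. The counts behind them were low at baseline, 7 to 30 per mouse with a median of 11.5, and 41 to 86 per mouse at day 7. All 8 day 7 mice were above all 8 baseline mice, and the mouse with 3.69 CPM stood apart from the other baseline mice, none of which exceeded 2.10 CPM. The fold change at day 7 was 3.05 (95% interval 2.32 to 4.0; log2 fold change 1.61, SE 0.20; adjusted p = 2.67e-06, edgeR). At day 14 the lowest, median and highest mice had 2.76, 4.78 and 6.12 CPM, so that 6 of 7 were above all baseline mice. The fold change was 2.45 (95% interval 1.84 to 3.25) with an adjusted p of 6.96e-04 by edgeR. From day 7 to day 14 the fitted log2 fold change was -0.32 (SE 0.18, adjusted p = 0.455, edgeR), which did not pass the test.

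*Sfrp2*, a close relative of *Sfrp1* that is typical of fibroblasts, lies at chr3:83766321-83774316 on the plus strand. It was near the limit of detection before injury, with 1 to 6 counts per mouse (0.173 to 0.766 CPM, median 0.507). At day 7 there were 8 to 18 counts, and the lowest, median and highest mice had 0.839, 1.21 and 1.42 CPM. Again all 8 day 7 mice exceeded all baseline mice. The fold change was 2.15 (95% interval 1.43 to 3.25; adjusted p = 0.0106, edgeR). No baseline mouse reached the level of the filter, whereas 6 mice at day 7 and 3 at day 14 did, so *Sfrp2* was tested through the groups in which it was higher. Without any filter on low counts it had a log2 fold change of 1.11 (SE 0.32, adjusted p = 0.0193, edgeR), and in a fit of only the baseline and day 7 mice it was not tested. At day 14 the mice were divided: 3 of 7 (1.30, 1.504 and 1.91 CPM) exceeded all baseline mice, and the other 4 had 0.468 to 0.662 CPM. The day 14 fold change of 1.90 (95% interval 1.23 to 2.93) had an adjusted p of 0.162 by edgeR. Between day 7 and day 14 the log2 fold change was -0.18 (SE 0.27, adjusted p = 0.805, edgeR).

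Every day 7 mouse lay above every baseline mouse for 2 of the 10 members, and for 1.16% of all genes tested. For day 14 mice this was so for 0 of the 10 members, and for 0.435% of all genes tested. The 10 members include *Sfrp5* and *Fzd2*, which were not tested. The 2 separated members, *Sfrp1* and *Sfrp2*, entered the test with the help of the injured groups. All members were chosen with earlier results of these data known, so these counts are a description only.

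*Dkk3* encodes a secreted glycoprotein of the Dickkopf family that, unlike DKK1, is not a classical LRP6 ligand. Its baseline levels were uneven, with a lowest mouse at 0 CPM, a median of 1.26 and a highest mouse at 5.05. At day 7 the values were 1.60, 3.15 and 5.86 CPM, and 1 of 8 mice exceeded all baseline mice. The log2 fold change of 1.05 (95% interval 1.23- to 3.47-fold) was close to that of *Sfrp2*, but it did not pass the test (adjusted p = 0.0595, edgeR). The call depended on single libraries, on the tool and on the scaling. Without baseline mouse 4, which had the 5.05 CPM, the log2 fold change was 1.46 (adjusted p = 0.00423, edgeR), and DESeq2 gave an adjusted p of 0.0306 with all mice. It also passed in edgeR without day 7 mouse 9, 11 or 13 (adjusted p = 0.0403, 0.0428 and 0.0483), and with total counts that leave out the 20 most abundant genes (log2 fold change 1.12, adjusted p = 0.0466). At day 14 *Dkk3* ranged from 0.878 to 2.28 CPM and differed from baseline by a log2 fold change of -0.052 (SE 0.42). From day 7 to day 14 the log2 fold change was -1.10 (SE 0.39, adjusted p = 0.173, edgeR).

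*Sfrp5*, another secreted Frizzled-related protein, had 0 to 11 counts per baseline mouse, 2 to 18 at day 7 and 1 to 9 at day 14. Its CPM ranged from 0 to 1.35, from 0.175 to 1.68 and from 0.109 to 0.956, respectively, and the groups overlapped. Without a filter its log2 fold change was 0.80 (SE 0.58, adjusted p = 0.418, edgeR) at day 7 and 0.67 (SE 0.60, adjusted p = 0.733) at day 14. A change was not detectable at this depth.

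*Wnt5a* lies at chr14:28504750-28527448 on the plus strand. It had 1.22 CPM in the lowest, 2.36 in the median and 3.33 in the highest baseline mouse, and 2.90, 3.51 and 5.24 CPM at day 7. The groups overlapped, with 5 of 8 day 7 mice above all baseline mice. The fold change was 1.61 (95% interval 1.30 to 1.99; adjusted p = 0.00300, edgeR), just past the required 1.5-fold. At day 14 the values were 1.99, 3.04 and 4.14 CPM, and the fold change of 1.27 (95% interval 1.02 to 1.60) did not pass (adjusted p = 0.373, edgeR).

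*Wnt5a* was also the member with the smallest p between the sexes. Females had 2.88 ± 0.51 CPM (SD, n = 4) at baseline, 4.37 ± 0.93 (n = 4) at day 7 and 3.44 ± 0.61 (n = 3) at day 14. Males had 1.83 ± 0.62, 3.21 ± 0.33 and 2.56 ± 0.48 CPM (n = 4 each). The mean of the males was therefore lower at all 3 time points, with a log2 fold change of -0.49 (SE 0.13), but the adjusted p was 0.0868 (edgeR, unadjusted 7.40e-04). None of the 8 tested members was a DEG between males and females by edgeR (1 with an unadjusted p under 0.05, as had 9.0% of all genes tested) or by DESeq2, against 0.230% of all genes tested. For the interaction of sex and time point, the adjusted p was 1 for each member, 0 members had an unadjusted p under 0.05, and 0% of 12933 genes passed (575 at an unadjusted p under 0.05). DESeq2 likewise called 0 members.

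**Figure D2:**
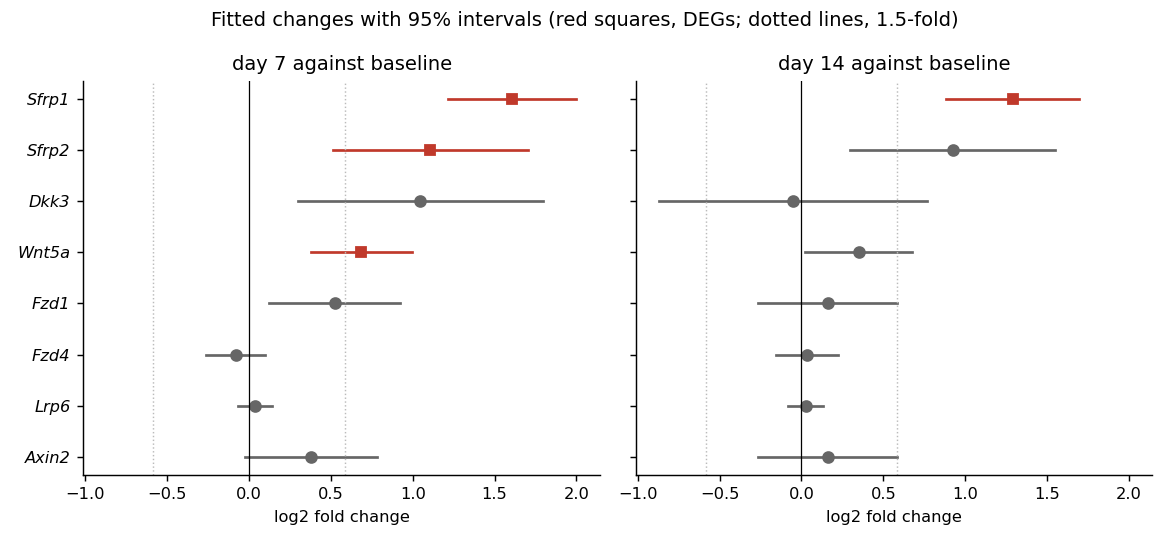
Fitted log2 fold change of each of the 8 members tested, with its 95% interval, at day 7 (left) and day 14 (right) against baseline; red squares are DEGs and dotted lines mark a 1.5-fold change. *Sfrp1* is a DEG in both comparisons, *Sfrp2* and *Wnt5a* are DEGs at day 7, and the intervals of *Fzd4* and *Lrp6* include 0 and stay within 1.5-fold in both.

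Of the 4 receptor and co-receptor genes, 3 were tested (*Fzd1*, *Fzd4* and *Lrp6*), and none of them passed at either time point. *Fzd4*, a Frizzled receptor known for its role in blood vessels, had 12.9, 14.2 and 18.1 CPM in the lowest, median and highest baseline mouse, 11.4, 13.7 and 16.2 CPM at day 7, and 12.0, 14.9 and 18.05 CPM at day 14. The 3 groups overlapped almost entirely. The day 7 interval ran from 0.833- to 1.07-fold and the day 14 interval from 0.899- to 1.17-fold. The day 7 log2 fold change of *Fzd4* was -0.081 on the TMM scale and 0.37 under total count scaling, less than the shift of all genes.

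The co-receptor *Lrp6* had the highest and steadiest level of the members. Its lowest, median and highest mice had 66.0, 70.2 and 76.6 CPM at baseline, 65.4, 72.8 and 81.9 CPM at day 7 and 64.8, 68.8 and 79.5 CPM at day 14. With 403 to 925 counts per mouse it was also the most precisely measured, and the intervals of 0.956- to 1.104-fold at day 7 and 0.945- to 1.097-fold at day 14 both included 1.

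*Fzd1* varied more. It had 1.74, 3.49 and 5.42 CPM at baseline, 3.85, 4.27 and 8.49 CPM at day 7, and 2.93, 3.80 and 5.31 CPM at day 14 (lowest, median and highest mouse). All 8 day 7 mice were above the baseline median, and 2 exceeded all baseline mice. The day 7 fold change of 1.44 (95% interval 1.09 to 1.90) had an adjusted p of 0.0728 by edgeR. It passed without baseline mouse 4 (log2 fold change 0.66, adjusted p = 0.0216), the baseline mouse with the highest *Fzd1*. *Fzd2* had 1 to 13 counts per mouse and 0.110 to 1.30 CPM over all groups. Its log2 fold changes without a filter were 0.41 (SE 0.35, adjusted p = 0.503, edgeR) at day 7 and -0.14 (SE 0.37, adjusted p = 0.964) at day 14.

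The feedback target *Axin2* had 3.22, 4.97 and 7.27 CPM in the lowest, median and highest baseline mouse, 3.64, 6.26 and 8.84 CPM at day 7 and 2.01, 5.20 and 7.60 CPM at day 14. The groups overlapped at both ends. The fold change was 1.30 (95% interval 0.982 to 1.72; adjusted p = 0.210, edgeR) at day 7 and 1.12 (0.832 to 1.501; adjusted p = 0.836) at day 14, so an increase of up to 1.72-fold lay within the day 7 interval.

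In the direct comparison of day 14 with day 7, 0 of the 8 members were DEGs by edgeR or DESeq2 (2, *Dkk3* and *Wnt5a*, had an unadjusted p under 0.05, as had 14.1% of all genes tested), and 0.377% of all genes tested were. The fitted change was negative for 7 of the 8 and ranged from -1.10 for *Dkk3* to 0.12 for *Fzd4*, with a median of -0.27 against -0.015 for all genes tested. *Sfrp1* and *Sfrp2* thus could not be shown to have fallen by day 14.

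Per kilobase of merged exons, the order of the baseline levels was *Lrp6* (5.13 ± 0.23 CPM per kilobase, SD, n = 8), *Fzd4* (2.19 ± 0.26), *Axin2* (0.876 ± 0.25), *Fzd1* (0.817 ± 0.30), *Dkk3* (0.505 ± 0.44), *Sfrp1* (0.424 ± 0.20), *Wnt5a* (0.301 ± 0.098), *Sfrp2* (0.242 ± 0.086), *Sfrp5* (0.171 ± 0.23) and *Fzd2* (0.164 ± 0.071). Only *Lrp6* and *Fzd4* stood apart from their neighbours by more than these SDs. At day 7 *Sfrp1* had moved from sixth to the third place at 1.29 ± 0.26 CPM per kilobase (n = 8), although *Fzd1* (1.19 ± 0.39), *Axin2* (1.14 ± 0.30) and *Dkk3* (1.01 ± 0.44) lay within its SD or theirs. It kept that place at day 14, at 1.05 ± 0.24 (n = 7).

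Because several members are typical of stromal cells, they were set beside 8 fibroblast marker genes (*Col1a1*, *Col1a2*, *Col3a1*, *Col6a3*, *Pdgfra*, *Dcn*, *Lum* and *Dpt*). All 8 were DEGs with a higher level at day 7, by log2 fold changes of 0.70 to 1.41 with a median of 0.86, and 4 of 8 were at day 14 (median of the list 0.54). Their levels summed to between 356 and 699 CPM in baseline mice, between 684 and 1253 CPM in day 7 mice and between 577 and 808 CPM in day 14 mice, and no defining marker was at 0 in a group. Macrophage markers moved too, with 7 of 8 being DEGs with a higher level at day 7 and 0 of 8 at day 14, and summed levels of 52.8 to 204, 128 to 304 and 88.0 to 172 CPM. Of 6 islet markers 3 were DEGs with a higher level at day 7 (summed level 121 to 509 CPM at baseline and 363 to 1081 CPM at day 7), as were 2 of 6 ductal markers, and 4 of 8 acinar markers were DEGs with a lower level. Of 6 markers of the intestinal epithelium, which borders the sampled tissue, 3 were among the symbols counted, and 0 had enough counts to be tested. These 3 summed to at most 1.86 CPM in any mouse. No DEG against baseline was found at either time point among the tested markers of endothelial cells (6), pericytes and smooth muscle (5 of 6) and mesothelium (5). Of the endothelial markers, however, 5 fitted lower and 1 higher at day 7, with *Kdr* at a log2 fold change of -0.35 (adjusted p = 0.00874, edgeR). *Emcn* was a DEG between day 14 and day 7 (log2 fold change 0.64, adjusted p = 0.00487, edgeR). The part of these cell types in the changes of the Wnt genes was not tested.

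Relative to the mean log2 CPM of the 8 fibroblast markers in the same mouse, *Sfrp1* was higher at day 7 than at baseline by 0.60 on the log2 scale (exact two-sided permutation test, p = 0.0138; adjusted over 20 comparisons 0.0346). The difference at day 14 was 0.70, which missed the threshold (adjusted exact p = 0.0653). Without the collagen genes among the markers the day 7 difference was 0.54 and no longer passed (adjusted exact p = 0.0679). For *Sfrp2* the difference was -0.072 at day 7 and 0.068 at day 14 (adjusted exact p = 0.776 and 0.807) and for *Wnt5a* it was -0.30 and -0.24 (adjusted exact p = 0.160 and 0.159). The day 7 sign for *Sfrp2*, with 1 to 6 counts per baseline mouse, depended on the prior count in the log2 CPM. With 0.5 in place of 2 that difference was 0.14 (adjusted exact p = 0.617). Without the collagen genes the *Wnt5a* difference at day 14 was -0.35 and passed (adjusted exact p = 0.0171).

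The fibroblast marker level itself rose by 0.97 on the log2 scale at day 7 and by 0.57 at day 14, so a gene whose own level stayed the same has a difference of that size with a negative sign. The values for *Fzd4* and *Lrp6* therefore restate the rise of the markers and are no separate change of these genes. At day 7 the difference was -1.06 for *Fzd4* and -0.94 for *Lrp6*, each with all 8 mice below all baseline mice and the smallest exact p that 8 against 8 mice allow (1.55e-04, adjusted 0.00155). It was -0.60 for *Axin2* (adjusted exact p = 0.0104), -0.67 for *Fzd2* (0.0323) and -0.43 for *Fzd1* (0.0483). The last 2 did not pass with a smaller prior count of 0.5 in the log2 CPM (adjusted exact p = 0.0698 and 0.0706). The fitted log2 fold changes at day 7 of *Axin2* (0.38), *Fzd1* (0.52) and, without a filter, *Fzd2* (0.41) were themselves positive. Their negative differences say only that these changes were smaller than the rise of the markers. Nor do the day 14 differences, or those of *Wnt5a*, show a fall of the genes' own levels. At day 14 *Fzd4* (-0.55), *Lrp6* (-0.55) and *Fzd2* (-0.72) passed with adjusted exact p of 0.0346, 0.0323 and 0.0346, the last again not with the smaller prior count (0.0698). Without the collagen genes *Fzd1* (-0.45) and *Axin2* (-0.57) passed at day 14 as well (adjusted exact p = 0.0270 and 0.0407). For *Sfrp5* and *Dkk3* no difference passed.

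Within the groups, mice with more fibroblast transcripts had more *Wnt5a* and *Fzd1*. After the mean of each sex and time point had been removed, the deviations of *Wnt5a* and the fibroblast marker level correlated with r = 0.64 and rho = 0.60 over 23 mice (permutation test, both adjusted p = 0.0429 over 20 relations). For *Fzd1* the values were r = 0.69 and rho = 0.67 (permutation test, both adjusted p = 0.0429). Without the 2 mice farthest from the median marker level, baseline mice 7 and 8, r was 0.68 and 0.71. Within baseline, day 7 and day 14 it was 0.67, 0.57 and 0.62 for *Wnt5a*, and 0.79, 0.56 and 0.47 for *Fzd1*. Baseline mouse 4, highest in *Fzd1* and *Dkk3* among baseline mice, also had the highest fibroblast marker level of that group (mean log2 CPM 5.76; range of the group 4.84 to 5.76). For *Sfrp1* the correlation was weak (r = 0.23, rho = 0.23, adjusted permutation p = 0.515) and differed in sign between day 7 (0.77) and day 14 (-0.32). None of the other 7 members passed for either measure, and r ranged from -0.33 for *Lrp6* to 0.57 for *Dkk3*. Without the collagen genes among the markers *Dkk3* passed (r = 0.71, adjusted permutation p = 0.0254).

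**Figure D3:**
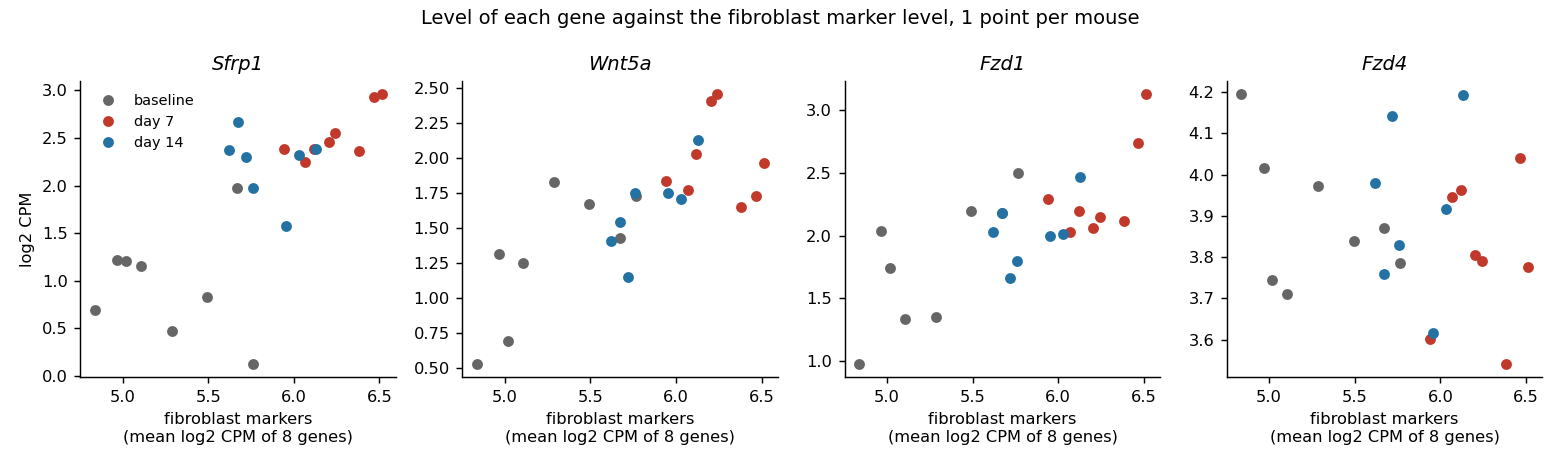
Log2 CPM of *Sfrp1*, *Wnt5a*, *Fzd1* and *Fzd4* (vertical axes, on separate scales) against the mean log2 CPM of 8 fibroblast markers, with 1 point per mouse colored by time point. Day 7 mice lie to the right (5.94 to 6.51) of baseline mice (4.84 to 5.76); *Wnt5a* and *Fzd1* rise with the marker level within the groups, and *Fzd4* does not.

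For *Sfrp1*, *Sfrp2* and *Fzd4*, the 5 genes with the most similar deviations over the 23 mice held no other Wnt gene. For *Sfrp1* they were *Npr2* (Pearson r 0.84), *Taf2* (0.82), *Ntrk2* (0.81), *Pias1* (0.78) and *Serpina3n* (0.77). For *Sfrp2* they were *Nup35* (0.77), *Zfp142* (0.75), *Elovl1* (0.74), *Pisd-ps1* (0.73) and *Fam134c* (0.72), and for *Fzd4* they were *Meis3* (0.85), *Arhgef2* (0.80), *Slc1a5* (0.79), *Itpr2* (0.75) and *Cdc14b* (0.74). These are the highest coefficients among all genes tested, from shared libraries, and are given as a description only.

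Finally, the remainder of the pathway was read from 9 lists holding 77 further genes, of which 71 were in the files and 43 had enough counts to be tested. At day 7, 1 of the 43 was a DEG, against 5.13% of all genes tested (18 fitted higher and 25 lower, median log2 fold change -0.073), and at day 14 there were 0 by edgeR and by DESeq2 (20 higher and 23 lower, median -0.032; 8 with an unadjusted p under 0.05, as had 13.3% of all genes tested). Between day 14 and day 7 and between the sexes edgeR and DESeq2 also called 0 (7 and 2 with an unadjusted p under 0.05, against 14.1% and 9.0% of all genes tested). The 1 DEG was *Celsr2*, an atypical cadherin of planar cell polarity, with 34.5, 45.3 and 52.5 CPM in the lowest, median and highest baseline mouse and 22.3, 28.6 and 31.3 CPM at day 7. Its log2 fold change was -0.68 (SE 0.085, adjusted p = 2.46e-06, edgeR). All its day 7 values were below all its baseline values, but how many of all genes tested were separated downward in this way was not counted. At day 14 its levels of 31.3 to 43.5 CPM overlapped with baseline (log2 fold change -0.31, adjusted p = 0.0697, edgeR).

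Another 6 genes passed an adjusted p of 0.05 at day 7 without reaching a 1.5-fold change, and all 6 were lower. Together with *Celsr2* these were 7 of 43, close to the 18.6% of all genes tested that passed an adjusted p of 0.05, so the count does not set the pathway apart. The scaffold gene *Dvl3*, which passes the signal on from Frizzled, changed by a log2 fold change of -0.57 (adjusted p = 2.51e-04, edgeR), and the kinase gene *Gsk3b* of the beta-catenin destruction complex by -0.27 (0.00667). *Celsr1* changed by -0.43 (4.51e-04), *Prickle2* by -0.41 (0.0389), the co-receptor *Lrp5* by -0.32 (0.0140) and *Porcn*, the acyltransferase that lipidates Wnt proteins, by -0.53 (0.00959). At day 14 *Dvl3* had the 1 adjusted p of at most 0.05, where 1.57% of all genes tested had one (log2 fold change -0.42, adjusted p = 0.0392, edgeR). These genes, apart from *Celsr1*, are named because they passed that threshold.

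Among the ligands other than *Wnt5a*, 3 of 14 in the files could be tested (*Wnt2b*, *Wnt4* and *Wnt9a*) and none was a DEG. The most abundant, *Wnt2b*, had 3.39 ± 1.61 CPM (SD, n = 8) at baseline and changed by -0.22 (SE 0.24, adjusted p = 0.552, edgeR) at day 7. Of the further secreted antagonists 3 of 7 were tested. *Sostdc1*, the most abundant at 35.8 ± 2.7 CPM at baseline, had a day 7 log2 fold change of -0.083 (adjusted p = 0.588, edgeR). The other 2, *Frzb* and *Sfrp4*, are relatives of *Sfrp1* picked out here after their values were seen, with log2 fold changes of 0.85 (SE 0.37, adjusted p = 0.115, edgeR) and 0.53 (SE 0.36, adjusted p = 0.320).

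The gene of each remaining list with the highest mean log2 CPM over all 23 mice did not reach 1.5-fold at day 7. The log2 fold changes were -0.15 for the receptor *Fzd3* (SE 0.10), -0.11 for the co-receptor *Ryk* (SE 0.070), 0.047 for *Lgr4* (SE 0.087), which binds R-spondins, -0.12 for *Wls* (SE 0.077), which carries Wnt proteins to the surface, 0.0018 for *Ctnnb1* (SE 0.057), which encodes beta-catenin, and 0.17 for *Ccnd1* (SE 0.13), which encodes cyclin D1 and served with *Axin2* as a target gene. Of the 7 further target and feedback genes, 4 were tested, 2 fitted higher and 2 lower at day 7, and none was a DEG. At day 14 again 2 fitted higher and 2 lower and none was a DEG. The extremes, picked after their values were seen, were log2 fold changes of -0.93 for *Nkd1* (SE 0.40, adjusted p = 0.297, edgeR) and 0.59 for *Tnfrsf19* (SE 0.20, adjusted p = 0.153).

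**Figure D4:**
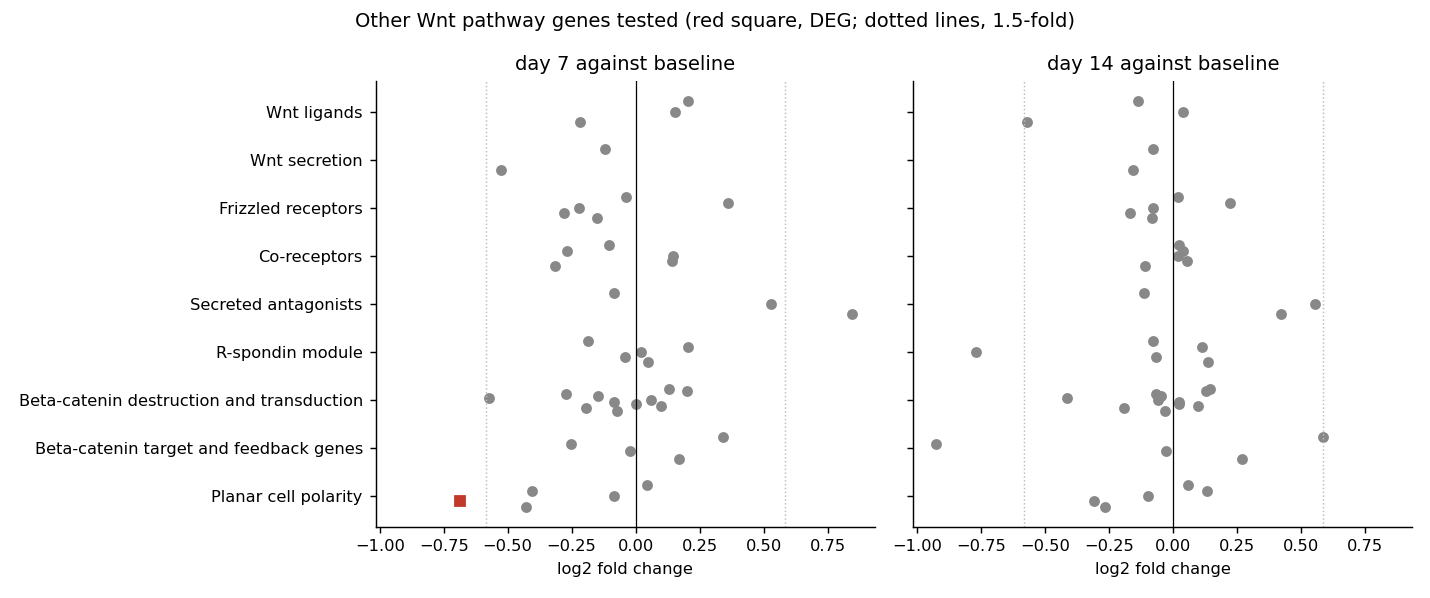
Fitted log2 fold change at day 7 (left) and day 14 (right) against baseline of the 43 further Wnt pathway genes tested, 1 point per gene, in 9 lists; the red square is the DEG and dotted lines mark a 1.5-fold change. *Celsr2* at day 7 (-0.68) is the 1 DEG, and no point of the ligand, Frizzled or co-receptor lists reaches 1.5-fold.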

How the data were processed

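RNA of the pancreatic head was depleted of ribosomal RNA and sequenced from stranded libraries, 1 per mouse. Per the labels, reads were trimmed with Trim Galore, aligned to mm10 with STAR 2.5.2a and counted per gene with featureCounts, and per the study's methods only uniquely mapped fragments were counted. The deposited values are these raw counts, unnormalized, 1 table of 18512 symbols per mouse. The gene annotation and the strand setting of the counting are not given in the sources used here. Antisense genes overlap *Sfrp2*, *Wnt5a* and *Axin2*, so reads of these could be shared if strand was not used. Of the exonic windows of 75 bases of each member, 99.9% (*Lrp6*) or 100% were unique to it. Whether each library is a separate animal is stated by the labels, which number the mice. One day 14 mouse left out by the study is not analysed here.

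Counts were scaled with TMM and tested with the quasi-likelihood F test of edgeR 4.0.16 (R 4.3.3), with time point and sex in 1 fit of 23 mice on the 12195 genes kept by filterByExpr. P-values are two-sided. The standard error follows from the fold change and its F statistic, and the 95% intervals, at 1.96 of these, restate the test. The interaction was tested with a coefficient for each sex and time point (12933 genes). Log2 CPM used a prior count of 2. Ratios to fibroblast markers were compared with exact permutation tests, and relations with 100000 permutations within sex and time point. The floor of 3 counts covers counting error only. Total counts of 7059890 to 9567446 set the precision of each level. Per the study's mapping statistics, the share of tags in leading untranslated exons was lower in every day 14 library than in every other library analysed here. Mapping rates were lower in most baseline libraries than at day 7. Such library differences cannot be told apart from time post-injury, and their part in the changes was not tested. Tests were tried on simulated data first. DESeq2 1.42.0, other scalings, filters, covariates and leaving out each mouse were the alternatives. Positions are from GENCODE vM21 (GRCm38). Other steps ran in Python 3.11.15 (scipy 1.17.1, numpy 2.4.6, matplotlib 3.10.9 and pandas 2.3.3).

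The members and gene lists were chosen with earlier results of these data known. Genes named are all members, every further Wnt gene called in a comparison, the gene of each list with the highest mean log2 CPM over all mice, and the 5 genes most like *Sfrp1*, *Sfrp2* and *Fzd4*. Others are said to have been picked after their values were seen.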

Additional observations from a re-analysis of the deposited data

Results flagged for a closer look

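In groups of 7 or 8 mice, the lowest and highest levels were compared, both on the log2 CPM and on the CPM scale, with Dixon's 95% critical values, which chance alone passes in about 1 of 20 groups. Of 30 groups (10 genes at 3 time points), 3 held a mouse that stood apart on the log2 scale, each the lowest of its group, and 4 held one on the CPM scale, each the highest. On the log2 scale *Sfrp2* was at 0.173 CPM (1 count) in baseline mouse 6, *Dkk3* was at 0 CPM in baseline mouse 8, and *Axin2* was at 2.01 CPM in day 14 mouse 23. On the CPM scale *Sfrp1* was at 3.69 CPM and *Sfrp5* at 1.35 CPM in baseline mouse 5, *Sfrp5* was at 1.68 CPM in day 7 mouse 15, and *Dkk3* was at 5.05 CPM in baseline mouse 4. Baseline mouse 8 had the lowest fibroblast marker level of its group (mean log2 CPM 4.84), and the part of that level in its *Dkk3* value was not tested.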

How the results depend on the processing

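*Sfrp1* at both time points and *Sfrp2* and *Wnt5a* at day 7 were DEGs in every alternative and every omission of a mouse in which they were tested, with log2 fold changes of 1.504 to 2.07 and 1.19 to 1.51 for *Sfrp1*, 1.002 to 1.55 for *Sfrp2* and 0.61 to 1.14 for *Wnt5a*. Total count scaling, which shifts all genes, gave 6 members as DEGs at day 7, 2 at day 14 and 2 between day 14 and day 7, and 7, 1 and 1 of the further Wnt genes. The 3 added at day 7 were *Dkk3*, *Fzd1* and *Axin2*. With at least 10 counts required in every mouse, 4 members were tested and 0 were DEGs at day 7 or day 14, because *Sfrp1*, *Sfrp2* and *Wnt5a* were no longer tested. Leaving out 1 mouse at a time gave 3 to 5 members called at day 7, with 5 (*Dkk3* and *Fzd1* added) without baseline mouse 4.

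The direction turned, without passing the test, in the following cases, and the cause was not tested. *Fzd4* at day 7 had an adjusted p under 0.05 among them but did not reach a 1.5-fold change. Under total count scaling the log2 fold change was 0.37 for *Fzd4* at day 7 (adjusted p = 0.00348, edgeR), 0.14 for *Dkk3* at day 14, -0.13 for *Fzd4* between day 14 and day 7 and -0.044 for *Fzd4* between the sexes, and the correlation with fibroblast markers was 0.36 for *Fzd4* and 0.51 for *Lrp6*. In a fit of only the mice compared *Dkk3* was at 0.00021 at day 14. Leaving out single mice gave -0.23 to 0.37 for *Dkk3*, -0.0033 to 0.049 for *Lrp6* and -0.026 to 0.082 for *Fzd4* at day 14, -0.041 to 0.018 for *Lrp6* between day 14 and day 7 and -0.036 to 0.16 for *Fzd1* between the sexes. Relative to fibroblast markers without collagens the day 14 difference was -0.037 for *Sfrp2* and -0.023 for *Sfrp5*, and with a prior count of 0.5 the day 7 difference was 0.14 for *Sfrp2* and 0.15 for *Sfrp5*. No paired analysis was possible because each mouse has its own number and no number is shared between groups. Counts under 20 per mouse limit *Sfrp2*, *Sfrp5* and *Fzd2*, for which only large changes could be seen. Baseline counts were also low for *Sfrp1* (7 to 30 per mouse), *Dkk3* (0 to 41) and *Wnt5a* (7 to 25).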
